A study of Homo sapiens with 36 samples.

Results

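The experiment described here is the response to cisplatin of 2102EP-C1 cells carrying the empty vector pLKO.1. 2102EP-C1 is a cisplatin-resistant clone of 2102EP, a human embryonal carcinoma line from a testicular germ cell tumor, so all groups from it rest on 1 clone. It was chosen as the 3 libraries of vector cells given 0.5 µM cisplatin for 6 h and the 3 libraries of the same cells given PBS, which are 6 of the 36 RNA-seq libraries of the study, and all 16459 genes listed for that experiment were used. RNA was taken on the day after treatment. The pLKO.1 cells went through lentiviral transduction and puromycin selection, and both groups share this. They served the study as the control for sh6A+6B cells, in which the histone H3K27 demethylases KDM6A and KDM6B are knocked down together with shRNAs. The dual knockdown used a separate lentivirus for each shRNA and selection in both puromycin and neomycin. Whether the vector cells also had a neomycin vector and that selection was not stated, so vector and knockdown cells may differ in more than the shRNAs. The other cells set beside them were untransduced 2102EP-C1 and NT2/D1-A4, a cisplatin-resistant derivative of the embryonal carcinoma line NT2/D1, each with a vehicle group and a cisplatin group at the same dose and time, of 3 libraries apiece. The study design calls the libraries biological triplicates.

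Cisplatin forms platinum adducts and crosslinks on DNA, which block replication and transcription and activate the checkpoint kinases. These stabilize p53, a transcription factor that binds pairs of half-sites in its target genes and raises cell cycle inhibitors, death receptors, repair factors and its own antagonists such as MDM2. Germ cell tumors are known for their sensitivity to cisplatin, and embryonal carcinoma cells resemble embryonic stem cells in the genes they express. The comparison asks which genes the drug moves in resistant cells that carry only the vector.

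The libraries held 82.6 to 100.9 M reads assigned to genes, so that 1 CPM, the unit of level used here, which scales counts to library size, stood for 83 to 101 reads. For genes of 200 or more reads on average, libraries of the same group spread 1.15 times as far as counting noise alone in PBS cells and 1.2 times in cisplatin cells. Every pair of libraries of 1 group differed by more than sampling noise, at 1.35 to 1.84 times the noise expected for the pair. The pair ratio is a separate measure from the group ratio, so their sizes are not to be compared. The 6 libraries fell into their labelled groups, with distances over the 500 most different genes of each pair of 0.562 to 0.576 log2 units within groups and 0.695 to 0.725 between them. Of 10 embryonal carcinoma markers, all 10 were listed, with a summed level of 10500 to 10600 CPM in PBS and 9950 to 10000 CPM in cisplatin cells. The 4 yolk sac markers and the 3 blood cell markers fixed for the check were not listed. The seminoma markers SOX17 and NANOS3, the trophoblast markers CGA, CGB3 and CGB5, and the stromal markers COL3A1, DCN and LUM were not listed either. The seminoma markers KIT, TFAP2C and PRDM1 were listed and summed to 143 to 146 CPM in PBS and 145 to 147 CPM in cisplatin cells. The trophoblast markers HAND1 and GATA2 were listed at a sum of 5.0 to 5.39 CPM in PBS and 4.53 to 4.74 CPM in cisplatin cells. The other 2 stromal markers, COL1A1 and COL1A2, summed to 80.3 to 82.5 CPM in PBS and 99.8 to 102 CPM in cisplatin cells, and any part of other cells in the results was not tested. In the sh6A+6B cells, which were used only for side-by-side values, KDM6A was 1.01 ± 0.03 (SE) and KDM6B 1.01 ± 0.05 log2 units below vector cells.

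Cisplatin changed few genes and mostly upward. At a fold change over 1.3 and a Benjamini-Hochberg adjusted p under 0.05 in limma, 493 of 16459 genes changed (3.00%), of which 417 rose (2.53%) and 76 fell (0.462%). The changes were small: only 119 of the raised and 16 of the lowered genes passed 1.5-fold, 6 rises and 0 falls passed 2-fold, and the median change was 0.50 log2 units among raised and -0.48 among lowered genes. Without the limit on fold change, 2953 genes were higher (17.9%) and 2993 lower (18.2%) at an adjusted p under 0.05. At an unadjusted p under 0.05 the number was 7302 genes. Values below are log2 CPM as deposited for single libraries, and differences are cisplatin minus PBS in log2 units with their limma standard error (SE). A gene is said to rise or fall only when it passed both thresholds.

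**Figure D1:**
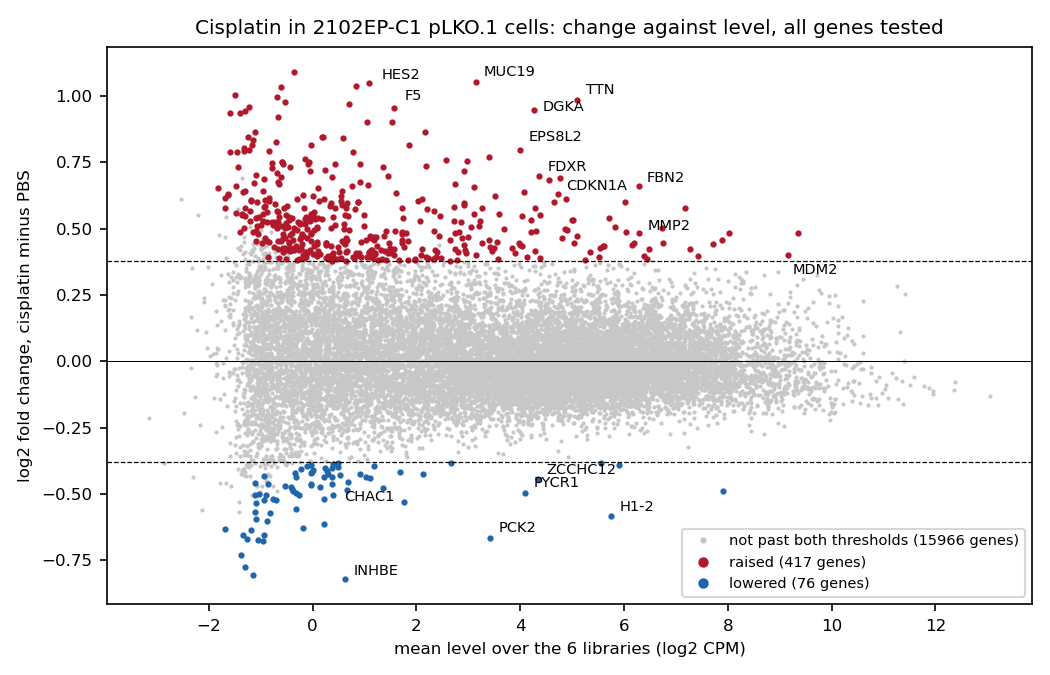
Change on cisplatin (log2 fold change, vertical axis) against mean level over the 6 libraries (log2 CPM, horizontal axis) for all 16459 genes, each a point, with dashed lines at a fold change of 1.3. The 417 raised genes outnumber the 76 lowered ones at every level, and most changed genes lie under 2 log2 CPM.

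The 15 largest rises, taken from genes that averaged 1 CPM or more and whose groups did not overlap, began with MUC19 and HES2. MUC19, a gel-forming mucin, read 2.69, 2.65 and 2.50 in PBS cells and 3.56, 3.70 and 3.74 in cisplatin cells, a difference of 1.05 ± 0.06 (2.08-fold, limma adjusted p = 1.3e-11). HES2, a basic helix-loop-helix repressor of the HES family, read 0.51, 0.63 and 0.57 against 1.68, 1.65 and 1.52, a difference of 1.05 ± 0.09 (2.07-fold, limma adjusted p = 2.2e-09). TTN, which encodes the giant sarcomere protein titin, read 4.57, 4.61 and 4.62 against 5.55, 5.54 and 5.67, a difference of 0.99 ± 0.04 (limma adjusted p = 3.3e-14). The rule that chose these genes required all 3 cisplatin libraries to stand above all 3 PBS libraries, so that separation is not a further result. DGKA, diacylglycerol kinase alpha, had the lowest adjusted p of the 15, with 3.81, 3.86 and 3.73 against 4.71, 4.76 and 4.78 and a difference of 0.95 ± 0.04 (limma adjusted p = 5.8e-15).

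The other 11 rose by 0.79 to 0.97 log2 units and came from varied families. They were LAPTM5, a lysosomal membrane protein best known in blood cells (0.97 ± 0.10), the coagulation factor F5 (0.96 ± 0.07), the microtubule-associated neuron navigator NAV3 (0.90 ± 0.06) and ABCA12, a lipid transporter of the skin barrier (0.90 ± 0.10). The smooth muscle actin ACTA2 (0.87 ± 0.07), the MiT-family transcription factor TFEC (0.85 ± 0.14), the lysosomal glycoprotein LAMP3 (0.84 ± 0.13) and the chloride channel CFTR (0.84 ± 0.11) followed. The adherens junction protein CTNNA3 (0.82 ± 0.07), the actin regulator EPS8L2 (0.80 ± 0.03) and CSMD3, a large membrane protein (0.79 ± 0.08), completed the group. Their levels in PBS cells ran from -0.56 log2 CPM in the lowest library of LAMP3 to 3.64 in the highest of EPS8L2, so most were weakly expressed. ACTA2 lies on chromosome 10 beside FAS and overlaps it in the annotation, TTN overlaps the antisense gene TTN-AS1, and the strand setting of the counting was not stated. TTN-AS1 itself differed by -0.02 ± 0.06 (limma adjusted p = 0.87). Among these largest rises, at least HES2, DGKA, LAPTM5, ABCA12 and EPS8L2 are also on the p53 target lists described next.

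The p53 target lists held many raised genes and no lowered ones. Of 139 genes on 6 lists of p53 targets, 131 were measured, and 32 of them rose (24.4%) while 0 fell, against 2.53% of all genes raised. Without the limit on fold change, 88 of the 131, these 32 included, were higher and 3 lower at an adjusted p under 0.05, against 17.9% and 18.2% of all genes. Their median difference was 0.21 log2 units, against -0.0037 over all genes. The lists were written with earlier results of these data known, so the count is not independent evidence of the direction. Without the list of surface, secreted and other targets, in which such genes are most numerous, 15 of 89 measured targets rose (16.9%) and the median was 0.17.

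Among the feedback regulators, MDM2, the ubiquitin ligase that degrades p53, read 8.94, 8.96 and 8.98 in PBS and 9.38, 9.34 and 9.35 in cisplatin cells, a rise of 0.40 ± 0.02 (1.32-fold, limma adjusted p = 4.6e-13). It was the most abundant of the raised p53 targets, at 497 CPM in PBS and 656 CPM in cisplatin cells. The phosphatase PPM1D, which reverses p53 phosphorylation, rose by 0.39 ± 0.03, the splicing regulator ZMAT3 by 0.44 ± 0.03, the ubiquitin ligase RNF144B by 0.47 ± 0.05 and TP53INP1, a cofactor of p53 and of autophagy, by 0.61 ± 0.04. Both PPM1D and MDM2 lay close to the fold threshold. PPM1D fell under it without cisplatin replicate 2 (0.37) or PBS replicate 2 (0.38). With the trend on transcript length and GC content removed, as described further on, PPM1D (0.36), MDM2 (0.32) and ZMAT3 (0.33) all fell under it. MDM4, the other main inhibitor of p53, differed by 0.05 ± 0.03 (limma adjusted p = 0.17).

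Of 17 targets that arrest the cell cycle, 4 rose, the weakest being RGCC (0.44 ± 0.11), which lost the call without cisplatin replicate 2 (0.35). CDKN1A, which encodes the cyclin-dependent kinase inhibitor p21, read 4.42, 4.38 and 4.46 in PBS and 5.05, 5.06 and 5.03 in cisplatin cells, a rise of 0.63 ± 0.03 (1.55-fold, limma adjusted p = 1.3e-12). BTG2, an antiproliferative adaptor of mRNA deadenylation, rose by 0.77 ± 0.04 and the polo-like kinase PLK2 by 0.53 ± 0.03. For all 3 genes the cisplatin libraries lay above the PBS libraries without overlap, as in 3938 of all 16459 genes. GADD45A, a growth arrest gene, was higher by 0.26 ± 0.04 (limma adjusted p = 7.6e-06), SFN, the epithelial 14-3-3 protein, by 0.38 ± 0.06 (limma adjusted p = 2.6e-05) and the E2F repressor E2F7 by 0.23 ± 0.02 (limma adjusted p = 8.3e-09), all under the fold threshold. SFN lay at that threshold (1.3-fold) and passed it with the length and GC trend removed (0.46), as DDB2 (0.38) and BBC3 (0.41) did.

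Of 25 measured genes of apoptosis and death receptors, 3 rose and a further 15 were higher at an adjusted p under 0.05 only. The death receptor FAS read 2.40, 2.45 and 2.37 against 2.79, 2.95 and 2.87, a rise of 0.46 ± 0.06 (limma adjusted p = 9e-07). The decoy receptor TNFRSF10C rose by 0.45 ± 0.07 and SPATA18, a mitochondrial quality control gene, by 0.58 ± 0.06. The BH3-only killers were higher by less than the fold threshold: BBC3 (PUMA) by 0.33 ± 0.05 (limma adjusted p = 2.4e-05) and PMAIP1 (NOXA) by 0.34 ± 0.04 (limma adjusted p = 1.5e-07). The death receptor gene TNFRSF10B was higher by 0.21 ± 0.03 (limma adjusted p = 3.2e-05). BAX, which permeabilizes the mitochondrial membrane, read 6.19, 6.14 and 6.20 against 6.14, 6.14 and 6.18, with overlapping groups and a difference of -0.03 ± 0.03 (limma adjusted p = 0.46).

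**Figure D2:**
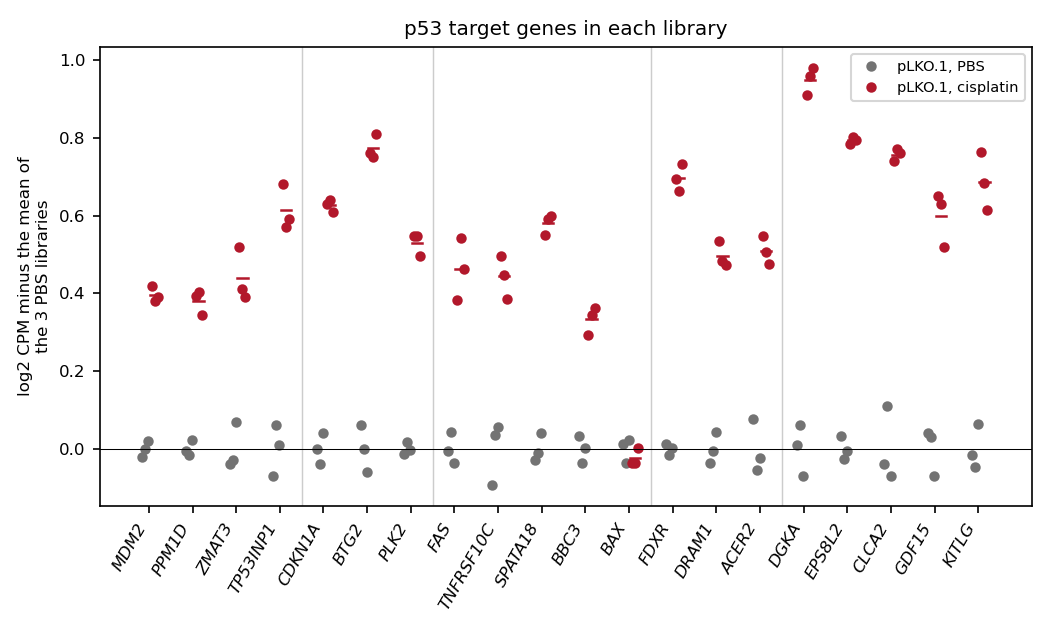
Level of 20 p53 target genes in each library (log2 CPM minus the mean of the 3 PBS libraries) for PBS (gray) and cisplatin (red, with a bar at the mean), ordered by role from feedback through arrest, apoptosis and metabolism to surface and other targets. For 19 genes every red point lies above every gray point, whereas the points of BAX overlap. Most of the 20 were shown because they rose. Every cisplatin library lay above every PBS library in 94 of the 131 measured p53 targets and in 3938 of all 16459 genes.

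The repair and metabolic targets moved less. Of 14 DNA repair targets, 0 rose past the fold threshold, but 8 were higher at an adjusted p under 0.05. The damage sensor of nucleotide excision repair DDB2 was higher by 0.33 ± 0.03, XPC by 0.20 ± 0.02, the ribonucleotide reductase subunit RRM2B by 0.31 ± 0.03 and POLH, the translesion polymerase that bypasses platinum adducts, by 0.33 ± 0.03. Of 22 measured targets of metabolism, redox control and autophagy, 3 rose. These were FDXR, the mitochondrial ferredoxin reductase (0.70 ± 0.03), the autophagy gene DRAM1 (0.50 ± 0.03, with 4.57, 4.60 and 4.65 against 5.14, 5.09 and 5.08) and the ceramidase ACER2 (0.51 ± 0.05). The largest list, 43 measured surface, secreted and other targets, held 17 of the 32 rises. Its members included GDF15, a secreted stress cytokine (0.60 ± 0.04), KITLG, the ligand of the KIT receptor (0.69 ± 0.05), CLCA2, a chloride channel regulator (0.76 ± 0.06), ANXA1, a phospholipid-binding protein (0.51 ± 0.02) and the epithelial transcription factor GRHL3 (0.43 ± 0.04).

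Promoter sequence was examined in the 12530 genes with an entry in the RefSeq promoter tables (GRCh38.p14, 250 bases before to 50 after each annotated start). A p53 site was counted where a pair of half-sites in the published consensus, at most 1 base apart, held at most 2 mismatches in all with the central C and G of each half-site kept. The consensus reads the same on both strands. Such a site was found in 9 of 282 raised genes (3.19%), 0 of 51 lowered genes and 87 of all 12530 genes (0.694%). Among p53 targets it was found in 9 of 106, and in 3 of the 27 that rose. These 3 sites are shown because the genes that carry them rose with cisplatin, with the pair of half-sites in capitals, 5′ to 3′, on the plus strand.
MDM2, chr12:68808919-68808946: agctGGTCAAGTTCAGACACGTTCcgaa
FAS, chr10:88991305-88991332: tcctGGACAAGCCCTGACAAGCCAagcc
GRHL3, chr1:24322918-24322946: acccAGACCTGGTTCAGGCTTGCCCaagg
The sites begin 94, 122 and 118 bases upstream of an annotated start of their gene, and each lies inside the annotated span of that gene (MDM2 68808172 to 68850686, FAS 88964050 to 89017059 and GRHL3 24319357 to 24364482), beside a downstream start. Each held 2 mismatches to the consensus. A match is a description of the letters, and binding was not measured.

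Genes of epithelia and the extracellular matrix rose beside the p53 targets. Of 24 measured epithelial and keratinocyte genes, 10 rose (41.7%) and 0 fell, against 2.53% of all genes raised and 7.21% of those under 1 CPM, with a median of 0.36 log2 units. The adhesion molecule NECTIN4 read 1.89, 1.73 and 1.82 in PBS and 2.61, 2.50 and 2.54 in cisplatin cells, a rise of 0.74 ± 0.06 (limma adjusted p = 2.3e-09). The tight junction protein CLDN1 rose by 0.67 ± 0.06 and the desmosomal plakophilin PKP1 by 0.49 ± 0.10. The keratins and FLG, a skin barrier protein, were near the floor of detection, with FLG at -0.79, -1.38 and -1.37 against -0.20, -0.06 and -0.28. KRT17 (0.73 ± 0.20) lost its call without PBS replicate 1 (0.55), and KRT15 (0.42 ± 0.15) lost it without any 1 of 5 libraries (0.31 to 0.44). ABCA12 stands on this list and among the p53 targets. CER1, a secreted antagonist of Nodal and BMP ligands that is listed with endoderm markers, rose by 0.66 ± 0.06.

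Of 40 measured matrix and adhesion genes, 6 rose (15%, against 2.53% of all genes) and 0 fell, and 29 were higher at an adjusted p under 0.05 (72.5%, against 17.9%). The fibrillin FBN2 read 5.92, 5.97 and 5.97 against 6.59, 6.60 and 6.65, a rise of 0.66 ± 0.03 (limma adjusted p = 3.3e-14). The gelatinase MMP2 read 6.08, 6.03 and 6.05 against 6.55, 6.55 and 6.51, a rise of 0.48 ± 0.02, and MMP14, the membrane protease that activates it, rose by 0.39 ± 0.03. The basement membrane proteoglycan HSPG2 rose by 0.55 ± 0.05, the collagen COL6A3 by 0.47 ± 0.08 and the fibrillin FBN1 by 0.39 ± 0.04. FBN1 fell under the threshold without cisplatin replicate 1 (0.37) and with the length and GC trend removed (0.27). The list's transcripts are long, with a median of 6.49 kb against 3.23 kb over all genes, and its median fell from 0.19 to 0.14 with that trend removed.

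The lowered genes were fewer and weaker, and the largest fall was that of INHBE, the inhibin beta E subunit. INHBE read 1.15, 0.91 and 1.06 in PBS and 0.30, 0.15 and 0.22 in cisplatin cells, a difference of -0.82 ± 0.09 (limma adjusted p = 2.5e-07). PCK2, the mitochondrial phosphoenolpyruvate carboxykinase, read 3.76, 3.74 and 3.77 against 3.07, 3.11 and 3.09, a difference of -0.66 ± 0.05 (limma adjusted p = 8.7e-10). The rule for the largest falls required groups without overlap, so the separation in both genes is not a further result. PYCR1, which makes proline, fell by 0.49 ± 0.05, and CHAC1, which degrades glutathione, read 0.48, 0.74 and 0.75 against 0.06, 0.02 and 0.36, a difference of -0.51 ± 0.11 (limma adjusted p = 0.00097). The germ cell gene TEX19 (-0.53 ± 0.10), the BH3-only gene HRK (-0.49 ± 0.10) and the zinc finger gene ZCCHC12 (-0.44 ± 0.03) also fell. RASSF4 fell too (-0.46 ± 0.13), but missed the thresholds without PBS replicate 2 (-0.37) or cisplatin replicate 3 (-0.33). The noncoding genes MVP-DT (-0.61 ± 0.15) and LIMD1-AS1 (-0.52 ± 0.13) overlap other genes, and the pseudogenes ASNSP1 (-0.48 ± 0.14) and EIF4A1P10 (-0.46 ± 0.12) share sequence with their parent genes, so the source of their reads is uncertain.

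PCK2 and CHAC1 belong to the integrated stress response, in which the transcription factor ATF4 raises genes for amino acid synthesis, uptake and tRNA charging. Of 25 measured members 3 fell (12%, against 0.462% of all genes) and 0 rose, while 18 were lower (72.0%, against 18.2%) and 1 higher at an adjusted p under 0.05, and the median was -0.19. The third was ASNS, asparagine synthetase, which missed the thresholds without PBS replicate 2 (-0.52). Few reads were assigned to ASNS (0.55 CPM in PBS and 0.354 CPM in cisplatin cells). It shares sequence with ASNSP1, and how the counting treated overlapping genes was not stated, so its true level is uncertain. The serine pathway was lower by less than the fold threshold: PHGDH by 0.24 ± 0.02 (7.75, 7.72 and 7.74 against 7.47, 7.51 and 7.50), PSAT1 by 0.27 ± 0.02 and SHMT2 by 0.32 ± 0.02. ATF4 itself differed by -0.15 ± 0.02 (limma adjusted p = 5.3e-06), its partner DDIT3 by -0.23 ± 0.05 and the pseudokinase TRIB3 by -0.28 ± 0.04. Member SESN2, which is also a p53 target, went the other way, at 0.16 ± 0.03 (limma adjusted p = 0.00078).

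The 8-letter core TGATGNAA of the C/EBP-ATF element, which ATF4 binds, was searched on both strands of the same promoters after the falls had been seen. It was found in 6 of 22 integrated stress response genes (27.3%), 6 of 51 lowered genes (11.8%) and 371 of 12530 genes (2.96%). The 4 sites below are from genes lower on cisplatin, of which CARS1 and AARS1 stayed under the fold threshold. HRK, which fell, and SLC3A2 also held a match, and theirs are not printed. The 4 sites are given on the strand of the gene with the match in capitals.
CHAC1, chr15:40953251-40953280, plus strand: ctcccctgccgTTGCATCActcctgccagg
ASNS, chr7:97872458-97872487, minus strand: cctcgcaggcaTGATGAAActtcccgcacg
CARS1, chr11:3057407-3057436, minus strand: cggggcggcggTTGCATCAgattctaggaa
AARS1, chr16:70289675-70289704, minus strand: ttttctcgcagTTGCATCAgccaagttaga
CARS1 and AARS1, which charge tRNAs with cysteine and alanine, differed by -0.27 ± 0.02 (limma adjusted p = 7e-09) and -0.19 ± 0.02 (limma adjusted p = 2e-09).

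**Figure D3:**
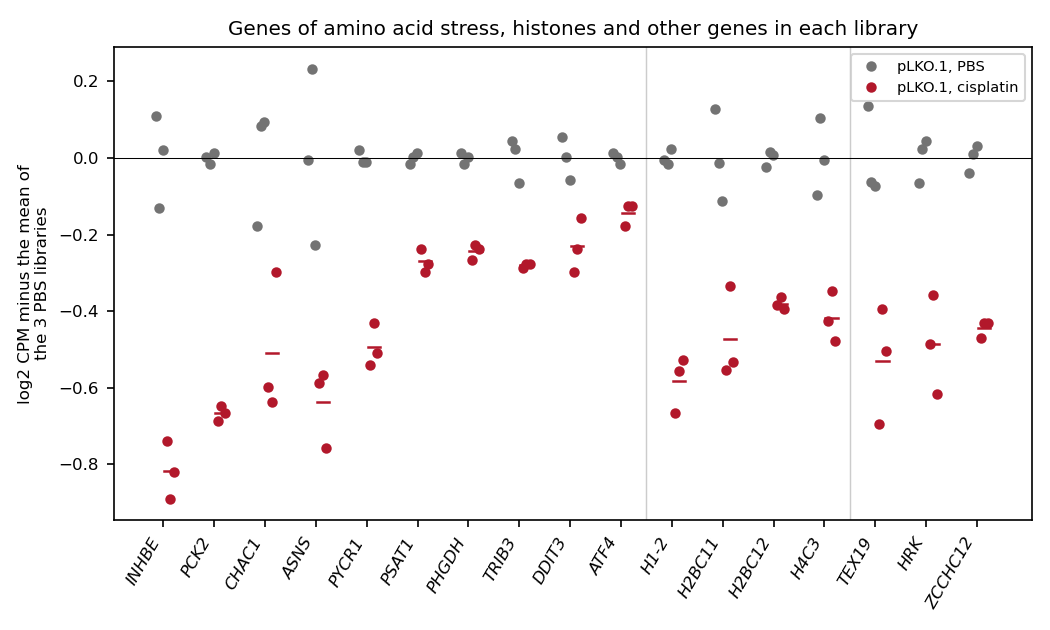
Level of 17 genes in each library (log2 CPM minus the mean of the 3 PBS libraries) for PBS (gray) and cisplatin (red, with a bar at the mean), with amino acid stress genes at the left, histones in the middle and other genes at the right. Red points lie below gray points for every gene, with INHBE lowest and ATF4 the least changed. Over all 16459 genes, every cisplatin library lay below every PBS library in 4167.

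Histone genes formed the other lowered group. Of 32 measured replication-dependent histone genes 6 fell (18.8%, against 0.462% of all genes) and 0 rose, with a median of -0.26 log2 units. Their transcripts are short, with a median of 0.488 kb, and with the length and GC trend removed 4 fell and the median was -0.19. The linker histone H1-2 read 6.03, 6.02 and 6.06 in PBS and 5.37, 5.48 and 5.51 in cisplatin cells, a difference of -0.58 ± 0.03 (limma adjusted p = 1.2e-12). H2BC11 (-0.48 ± 0.09), H2BC12 (-0.38 ± 0.02) and H4C3 (-0.42 ± 0.09) also fell, but H2BC12 (-0.30) and H4C3 (-0.36) lost the call with the length and GC trend removed and without PBS replicate 2 (-0.37 and -0.36), and H2BC12 without cisplatin replicate 3 (-0.37) and under both other scalings (-0.37 and -0.38). The other 2 members that fell, H3C12 (-0.57 ± 0.17) and H2AC20 (-0.60 ± 0.20), were under 1 CPM and lost the call without PBS replicate 1 (-0.49 and -0.59), as H2AC20 did without cisplatin replicate 1 (-0.32) or PBS replicate 2 (-0.51). Replication-dependent histone mRNAs mostly lack poly(A) tails and have near-identical copies, so poly(A) libraries see a small and uncertain part of them.

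No listed gene of proliferation or DNA repair passed the fold threshold. Of 43 G2/M genes repressed by the DREAM complex 0 passed both thresholds, and the median was 0.03. At an adjusted p under 0.05, 14 of them were higher (32.6%, against 17.9% of all genes) and 6 lower (14%, against 18.2%). Of 37 G1/S and replication genes 0 passed both, 5 were higher (13.5%) and 18 lower (48.6%, against 18.2% of all genes), with a median of -0.06. The cyclin CCNB1 differed by -0.03 ± 0.02 (limma adjusted p = 0.13) and the replication clamp PCNA by -0.02 ± 0.01 (limma adjusted p = 0.36), so no change past 1.3-fold was detected at this depth. None of 35 crosslink and homologous recombination repair genes, 20 nucleotide excision and mismatch repair genes or 27 damage signalling and translesion genes passed both thresholds. Among them FANCD2 differed by 0.02 ± 0.02, BRCA1 by 0.01 ± 0.02 and ERCC1 by -0.08 ± 0.04.

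Pluripotency genes stayed within the fold threshold. Of 28 genes 0 passed both thresholds, and the median was -0.04. At an adjusted p under 0.05, 6 were higher and 11 lower (21.4% and 39.3%, against 17.9% and 18.2% of all genes). POU5F1 (OCT4) read 9.37, 9.35 and 9.36 in PBS and 9.26, 9.30 and 9.30 in cisplatin cells, a difference of -0.07 ± 0.02. NANOG differed by 0.07 ± 0.02, SOX2 by 0.02 ± 0.03 and LIN28A by -0.14 ± 0.01. DNMT3B, the de novo DNA methyltransferase that embryonal carcinoma cells express highly, differed by -0.09 ± 0.01 (limma adjusted p = 2.4e-05) from a level of 2990 CPM in PBS cells. Chromatin regulators were close to their PBS levels. KDM6A differed by 0.10 ± 0.03 (limma adjusted p = 0.004) and KDM6B by 0.06 ± 0.05 (limma adjusted p = 0.36). The methyltransferase EZH2 was lower by 0.14 ± 0.02 (limma adjusted p = 3e-05), while SMARCA4 differed by 0.00 ± 0.02. None of 27 H3K27 and H3K4 methylation enzymes or of 18 chromatin modifiers named by the study passed both thresholds. At an adjusted p under 0.05 alone, 7 of the 27 were higher and 4 lower, and 10 of the 18 were higher (55.6%, against 17.9% of all genes) and 2 lower. With the length and GC trend removed these counts were 2 and 7 of the 27, and 2 and 3 of the 18.

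A further pattern followed transcript length. The median difference was -0.08 log2 units in the 992 genes with transcripts of 0.5 to 1 kb, -0.02 in the 5360 genes of 2 to 4 kb, and 0.15 in the 344 genes over 12 kb. Among the latter 8.72% rose, against 1.61% of those of 0.5 to 1 kb. Sets of short transcripts were lower, although 0 of either set below passed the fold threshold. Of 84 cytosolic ribosomal protein genes, with a median length of 0.827 kb, 77 were lower at an adjusted p under 0.05 (91.7%, against 18.2% of all genes). So were 25 of 37 genes of respiratory chain complex I (67.6%), with a median length of 0.691 kb. The medians of the ribosomal and complex I sets were -0.14 and -0.10, and -0.08 and -0.04 with a smooth trend on length and GC content removed. With that trend removed, 74 ribosomal but only 10 complex I genes were lower at an adjusted p under 0.05. Lengths were known for 15222 genes (92.48%). The TTN transcript is 109 kb long, and its difference of 0.99 fell to 0.44 with the trend removed. The part of RNA integrity, fragmentation or the vector in this trend was not tested.

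**Figure D4:**
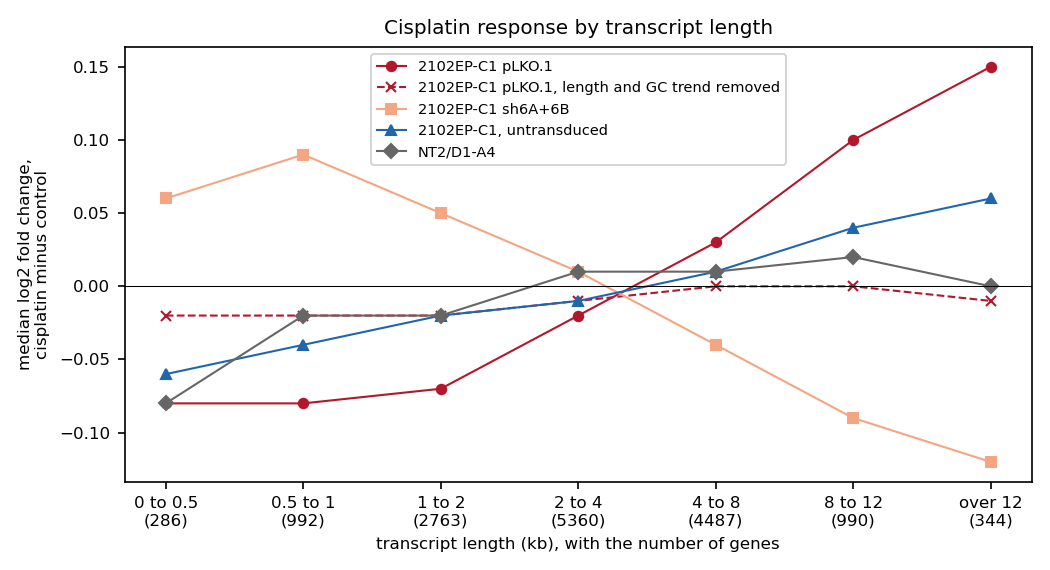
Median log2 fold change on cisplatin (vertical axis) of genes in 7 bins of transcript length (kb, horizontal axis, with the number of genes), for 4 cisplatin comparisons and, dashed, for vector cells with the length and GC trend removed. The median in vector cells goes from -0.08 in the shortest bin to 0.15 in the longest, while that in sh6A+6B cells is 0.06 in the shortest, 0.09 in the next and -0.12 in the longest.

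The direction of this trend was opposite in the sh6A+6B cells of the same experiment, with medians of 0.09 at 0.5 to 1 kb and -0.12 over 12 kb. It was weaker in untransduced 2102EP-C1 cells (-0.04 and 0.06) and nearly absent in NT2/D1-A4 cells (-0.02 and 0.00). The difference between vector and knockdown cells was tested by the interaction in the same limma fit, in which 620 of 16459 genes (3.77%) passed both thresholds. TTN, the gene with the longest transcript named here, differed by 0.99 in vector and -0.49 in sh6A+6B cells (limma adjusted p of the difference 1.9e-14). MUC19 rose by 1.05 in vector cells and differed by 0.13 in sh6A+6B cells (limma adjusted p of the difference 1.4e-08), and FBN2 by 0.66 and 0.09 (limma adjusted p of the difference 8.7e-11). The p53 targets CDKN1A (0.63 and 0.75, limma adjusted p of the difference 0.059), MDM2 (0.40 and 0.38, adjusted p 0.59) and DGKA (0.95 and 0.83, adjusted p 0.071) showed no difference past the threshold.

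RNAs kept in the nucleus and transcripts of the mitochondrial genome were also higher in vector cells. All 7 nuclear retained RNAs were higher at an adjusted p under 0.05 (100%, against 17.9% of all genes). Of the 7, 2 rose (28.6%, against 2.53% of all genes). NEAT1, the scaffold of paraspeckles, rose by 0.70 ± 0.08 (1.00, 1.05 and 1.24 against 1.80, 1.83 and 1.77). PWAR5, a noncoding RNA of the imprinted Prader-Willi region, rose by 0.60 ± 0.04. MALAT1 was higher by 0.32 ± 0.03. In sh6A+6B cells the same 3 RNAs differed by 0.01, -0.09 and -0.19, and each difference between vector and knockdown cells passed both thresholds (limma adjusted p = 6.2e-05, 5.5e-09 and 3.8e-09). All 15 mitochondrially encoded genes were higher at an adjusted p under 0.05, with a median of 0.26, and ND6 (0.49 ± 0.04) and the ribosomal RNA RNR1 (0.40 ± 0.06) rose. RNR1 lost the call without cisplatin replicate 2 (0.31) or PBS replicate 2 (0.38). In untransduced 2102EP-C1 cells 14 of the 15 fell (against 0.188% of all genes there), with a median of -0.46. The median was -0.41 in NT2/D1-A4 and -0.14 in sh6A+6B cells.

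The response was set beside that of untransduced 2102EP-C1 and NT2/D1-A4 cells, which were normalized separately and share no libraries with the vector cells. In untransduced cells 0.881% of genes rose and 0.188% fell, and in NT2/D1-A4 cells 2.05% rose and 0.396% fell. Of the 417 genes raised in vector cells, 398 were measured in untransduced cells, where 345 were higher (86.7%, against 49.2% of all genes there) and 95 rose. These 95 made up 23.9% of the measured genes and 63.3% of the 150 genes raised in untransduced cells. In NT2/D1-A4 cells 271 of 336 were higher (80.7%, against 50% of all genes) and 81 rose, which is 24.1% of those measured and 24% of the 337 genes raised there. In sh6A+6B cells, where 2.48% of genes rose and 1.04% fell, 153 of the 417 rose (36.7%).

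The 76 lowered genes were set beside the same cells. Of 69 measured in untransduced cells 57 were lower (82.6%, against 50.8% of all genes) and 2 fell (2.9%, against 0.188%), and of 64 in NT2/D1-A4 cells 41 were lower (64.1%, against 50% of all genes) and 5 fell (7.81%, against 0.396%). In sh6A+6B cells 13 of the 76 fell (17.1%, against 1.04%). The median difference of the integrated stress response was -0.19 in vector and -0.20 in sh6A+6B cells, but -0.01 in untransduced and -0.04 in NT2/D1-A4 cells. PCK2 differed by -0.66 in vector cells, -0.66 in sh6A+6B cells, -0.28 in untransduced cells (limma adjusted p = 0.096) and -0.04 in NT2/D1-A4 cells (limma adjusted p = 0.84), and INHBE by -0.82, -0.87, -0.59 and -0.16. No test was made across experiments, so these values are a description.

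**Figure D5:**
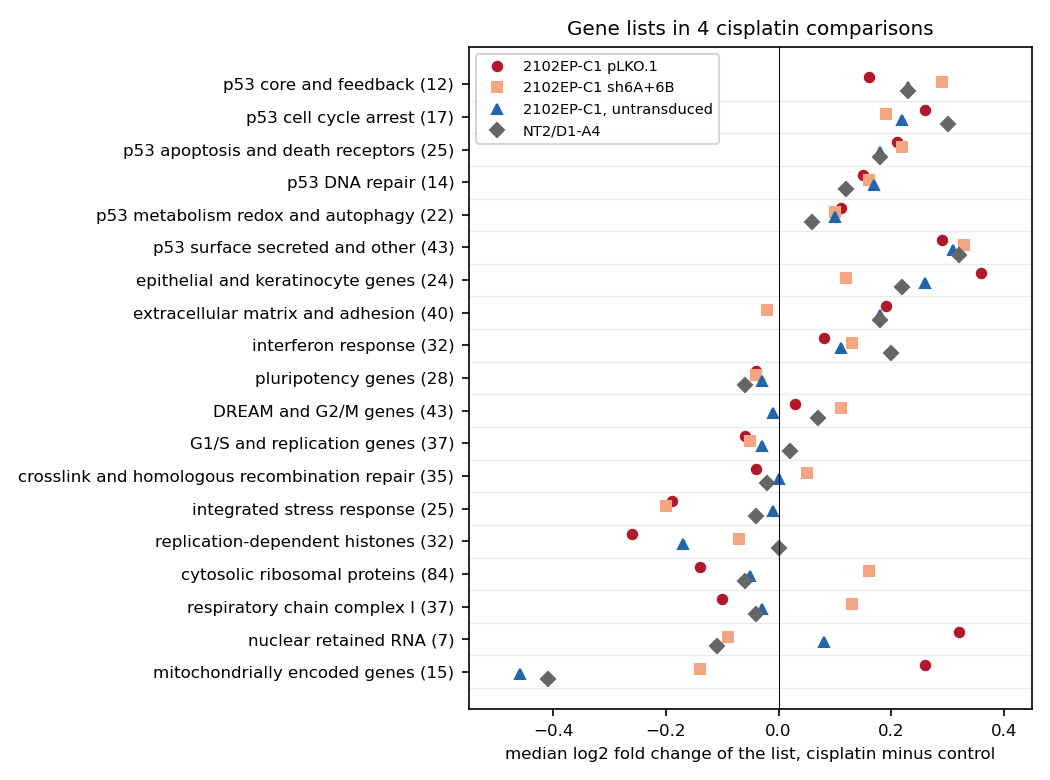
Median log2 fold change on cisplatin (horizontal axis) of 19 gene lists, with the number of genes measured in vector cells in parentheses, in 4 comparisons of cisplatin with control. The p53 lists lie to the right of 0 in all 4, whereas the stress response list lies left of 0 mainly in vector and sh6A+6B cells and mitochondrially encoded genes lie right of 0 in vector cells only.

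A common core rose in vector, untransduced and NT2/D1-A4 cells. It held 51 genes, of which 18 are on the p53 lists. HES2 rose by 1.05, 0.87 and 1.00 in these 3 kinds of cells in that order, DGKA by 0.95, 0.82 and 0.60, EPS8L2 by 0.80, 0.77 and 1.00 and FDXR by 0.70, 0.68 and 0.73. CDKN1A rose by 0.63, 0.44 and 0.75 and GDF15 by 0.60, 0.71 and 0.97. Outside the p53 lists the core held the epithelial genes NECTIN4 (0.74, 0.73 and 0.55) and CLDN1 (0.67, 0.58 and 0.89), the matrix proteases MMP2 (0.48, 0.50 and 0.59) and MMP14 (0.39, 0.46 and 0.58), and the AP-1 subunit FOSL1 (0.48, 0.43 and 0.44).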

How the data were processed

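The members and gene lists were chosen with earlier results of these data known. The deposited values were log2 CPM per gene. The authors sequenced stranded poly(A) libraries, used Trimmomatic, STAR with GRCh38.p14 and featureCounts (versions and strand setting not given in the sources used here), required more than 0.5 CPM in 2 or more samples per gene, and scaled with TMM. The deposited log2 values held a prior count of 3, and whole reads were recovered from them for depth and for other scalings. All 12 libraries of the vector and knockdown experiment were fitted with limma-trend (limma 3.58.1, R 4.3.3), a mean per group and no block, two-sided, with Benjamini-Hochberg adjustment over 16459 genes. The same was done for each other experiment. P-values measure the spread between 3 libraries per group. Symbols came from RefSeq (16443 matched) and transcript length and GC from GENCODE. The rule for named genes took the 15 largest rises and falls at 1 CPM or more on average with no overlap, list members past both thresholds or chosen for role, and genes the study names. Symbols starting with LOC were counted but not named, and some genes that meet the rule are not reported here. The fit was tested on simulated data. Alternatives were level filters, fewer libraries, a replicate block, voom, other scalings, a prior count of 0.5, a length and GC correction and leaving out each library. Whether same-numbered libraries were paired cultures was not stated, and the main fit treated them as unpaired.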

Additional observations from a re-analysis of the deposited data

Results flagged for a closer look

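Among the 30 genes with the largest changes, 7 had a cisplatin effect in sh6A+6B cells that differed from that in vector cells past both thresholds in the interaction of the limma fit, against 3.77% of all genes. The values given are the effect in sh6A+6B cells minus that in vector cells, in log2 units with 3 libraries in each of the 4 groups. For the raised genes they were -1.47 for TTN, -0.93 for MUC19, -0.56 for LAMP3, -0.43 for F5 and -0.38 for NAV3 (limma adjusted p = 1.9e-14, 1.4e-08, 0.018, 0.00077 and 0.002). For the lowered histone genes H1-2 and H2BC11 they were 0.45 and 0.41 (limma adjusted p = 1.5e-08 and 0.017). TTN changed direction, at 0.99 in vector and -0.49 in sh6A+6B cells, whereas F5 (0.96 and 0.52) and NAV3 (0.90 and 0.52) rose in both. The transcripts of TTN and MUC19 are 109 and 24.7 kb long. These genes were chosen by the size of their change in vector cells, which also enters the difference. Their share is therefore not a fair comparison with that of all genes. The part of transcript length in the differences was not tested.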

How the results depend on the processing

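The number of changed genes was 493 (417 raised, 76 lowered) and moved by over 1.5 times only under level filters, which test fewer genes. With a mean over 1 CPM (14170 genes) it was 287 (252 and 35), and over 4 CPM (11185 genes) 126 (117 and 9). The raised p53 targets numbered 32, and 30 and 23 under these filters. With the replicate block, a paired fit, 502 genes changed (424 and 78). Same-numbered libraries did not deviate together (correlations of -0.152, -0.022 and -0.105). The other alternatives, including voom (527), the prior count of 0.5 (509), other scalings (503 and 506), the 6 libraries alone (513) and the length and GC trend removed (450, of which 394 are among the 493), changed no such count by over 1.5 times. Without 1 library the counts were 447 to 512 in all, 374 to 425 raised, 66 to 87 lowered and 30 to 34 p53 targets. Of 85 named genes that rose or fell none changed sign under any of these settings, 14 lost their call without some library and 6 under other alternatives. Of those not given above, LIF (0.35 to 0.38 without 1 of 4 libraries) and the barely detected SAMD9 (0.61 without PBS replicate 2) did so. Of 39 other named genes 4 (SFN, BBC3, DDB2 and PMAIP1) passed both thresholds under some setting. Differences near 0 changed sign: with the length and GC trend removed, alone or with the block, BAX was at 0.06, BRCA1 at -0.06, FANCD2 at -0.01, MDM4 at -0.06, PCNA at 0.03, and POU5F1 and SMARCA4 at 0.00. Without 1 library BRCA1 ran from 0.00 to 0.02, SMARCA4 from -0.01 to 0.01, SOX2 from -0.01 to 0.05 and TTN-AS1 from -0.03 to 0.00. The length and GC correction with the block (455) and the block on the 6 libraries (500) were added after seeing the data. Weak genes rest on few reads: of 2276 genes under 1 CPM 164 rose (7.21%) and 41 fell (1.8%), against 253 (1.78%) and 35 (0.247%) of the 14183 at or above it, and how depth bears on these shares was not tested.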

Other observations

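Few members of the other gene lists passed both thresholds. Of 32 measured interferon response genes 2 rose, OAS2 (0.79 ± 0.21) and SAMD9 (0.79 ± 0.23), both barely detected, and the median was 0.08. Of 13 NF-kB and cytokine genes only EBI3, a cytokine subunit, rose (1.03 ± 0.15, with -1.03, -1.25 and -1.09 log2 CPM in PBS and -0.06, -0.25 and 0.04 in cisplatin cells), and of 23 AP-1 and immediate early genes only FOSL1 did (0.48 ± 0.06). None passed both thresholds among 20 NRF2 antioxidant genes, 27 genes of cisplatin uptake and export and metallothioneins, 28 hypoxia and glycolysis genes or 25 genes of cholesterol synthesis. At an adjusted p under 0.05 alone, 17.9% of all genes were higher and 18.2% lower. For the NRF2 list the counts were 1 higher and 7 lower (5.0% and 35.0%), and for the uptake and export list 0 and 11 (0.0% and 40.7%). They were 9 and 9 for hypoxia and glycolysis (32.1% each) and 8 and 4 for cholesterol synthesis (32.0% and 16.0%). Lineage markers gave 0 changed genes of 7 seminoma and germ cell markers, 6 trophoblast and 7 neural markers, and 1 raised gene each of 5 yolk sac and endoderm markers (CER1) and 11 mesoderm and stromal markers (ACTA2).

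By class, 304 of 13933 protein-coding genes rose (2.18%) and 46 fell (0.33%), while 90 of 1826 long noncoding RNA genes rose (4.93%) and 18 fell (0.986%). Over all genes the raised share was 6.94% at or under -1 log2 CPM, 7.31% from there to 0 and 0.383% over 8 log2 CPM, and the classes were not compared at matched level.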
